A study of Xenopus laevis with 9 samples.

Results

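Expression of sp5, axin2 and lef1, genes reported in several vertebrates to be direct targets of canonical Wnt signalling, was followed in anterior tissue of *Xenopus laevis* neurulae that had been exposed to a retinoid. Every row of the count table whose symbol, without its ending, is sp5, axin2 or lef1 was taken, which gave 6 genes of 58413 rows. *X. laevis* is allotetraploid, and each of the 3 genes has a pair of homeologs, written L and S, that were counted apart. All 6 had enough counts to be tested, among 20811 genes tested in all.

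The tissue was wild type and came from embryos of 3 females. Anterior pieces were dissected at Nieuwkoop and Faber (NF) stage 12.5, the end of gastrulation, and were held until NF stage 15, the early neurula, in 1 of 3 solutions. These were retinoic acid (RA) at 1 µM, 4-oxo-RA at 10 µM, and the solvent dimethyl sulphoxide (DMSO), whose labelled concentration is 10 µM too. RA is a vitamin A derivative that activates nuclear receptors, and 4-oxo-RA carries an added oxo group on its ring. The doses of the retinoids differ, so a difference between them is one between these treatments and not between the compounds at a matched dose. Each treatment had 3 messenger RNA libraries, and the labels do not say whether these came from separate cultures, so the spread that a p-value measures is the one between these libraries and may be technical.

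In the canonical Wnt pathway a secreted Wnt protein binds Frizzled and LRP co-receptors at the cell surface, and the cytoplasmic complex that marks beta-catenin for destruction is then held back. Beta-catenin enters the nucleus and joins DNA-binding proteins of the TCF/LEF family at target genes. In frog embryos this pathway acts in posterior and lateral patterning of the neural plate and in induction of the neural crest, while the head needs it to be low. Sp5 is a zinc-finger transcription factor of the Sp family. Axin2 is a scaffold of the beta-catenin destruction complex and a feedback inhibitor of the pathway, and Lef1 is a TCF/LEF protein that is itself an effector.

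The libraries held between 9404644 and 20883648 counts. Expression is given as CPM, the count of a gene relative to the size of its library after TMM scaling. Calls rest on edgeR's quasi-likelihood test over all genes tested, with p-values adjusted by Benjamini-Hochberg and a threshold of 0.05. The labelled tissue was checked with region markers. Those of the anterior neural plate and eye field (six3, rax, otx2, fezf2 and hesx1) summed to between 823 and 985 CPM in the DMSO libraries. Those of the posterior growth zone and tailbud summed to between 33.7 and 67.9 CPM, with between 11 and 14 of 24 genes at a count of 0. Both copies of hoxc9 were at 0 in every library, as was tbx6.S in the 3 DMSO libraries. Other posterior genes were detected, among them cdx2.L at 131, 263 and 406 counts and tbxt.S at 85, 208 and 186 counts in DMSO replicates 1, 2 and 3. Libraries that carry the same replicate number resembled each other across treatments, and values from a second fit, blocked on that number, are quoted where they changed a call.

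Both sp5 copies fell with RA, and by more than either copy of axin2 or lef1 differed from DMSO. For sp5.L the DMSO libraries stood at 29.9, 37.7 and 34.2 CPM and the RA libraries at 9.16, 7.32 and 4.96 CPM. The corresponding values of sp5.S were 11.3, 18.1 and 18.6 CPM in DMSO and 3.57, 4.64 and 2.41 CPM in RA. All RA libraries lay below all DMSO libraries for both copies, and RA replicate 3 was the lowest of all 9 libraries. The RA mean was 21.0% of the DMSO mean for sp5.L and 22.1% for sp5.S. The log2 fold change was −2.25 ± 0.25 (SE, n = 3 per group) for sp5.L (edgeR adjusted p = 0.000732) and −2.17 ± 0.31 for sp5.S (edgeR adjusted p = 0.00407). In bulk pieces, fewer cells that express a gene and less RNA per cell cannot be told apart. Both calls held with any single library left out, with edgeR adjusted p of at most 0.00567 for sp5.L and 0.0243 for sp5.S. Of the 6 genes, 2 were called lower and 0 higher with RA, where 0.456% and 1.22% of all genes tested were called. With the replicate block 4 were lower and 0 higher, where 3.17% and 3.5% of all genes tested were called.

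With 4-oxo-RA the sp5 copies were lower by a smaller amount, and in the fit without the block the call was less stable. The 4-oxo-RA libraries stood at 10.97, 15.4 and 9.38 CPM for sp5.L, 35.1% of the DMSO mean. For sp5.S they were at 6.69, 8.24 and 4.95 CPM, 41.4% of the DMSO mean. Again no treated library reached the lowest DMSO library. For sp5.L the log2 fold change was −1.51 ± 0.24 and passed (edgeR adjusted p = 0.0148). It also passed with the replicate block, at −1.54 (blocked edgeR adjusted p = 0.000102). For sp5.S it was −1.28 ± 0.30 and did not pass (edgeR adjusted p = 0.128), while with the replicate block it did, at −1.30 (blocked edgeR adjusted p = 0.00347). In the fit without the block, the call of sp5.L was lost without 4-oxo-RA replicate 1 (edgeR adjusted p = 0.0774), 4-oxo-RA replicate 3 (0.0873), DMSO replicate 2 (0.0806) or DMSO replicate 3 (0.0577). Single libraries were not left out of the blocked fit. Of the 6 genes 1 was thus called lower with 4-oxo-RA, and 2 with the block, against 0.111% and 1.31% of all genes tested. None was called higher in either fit, against 0.625% and 2.05% of all genes tested. Both retinoids were set against the same DMSO libraries.

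**Figure D1:**
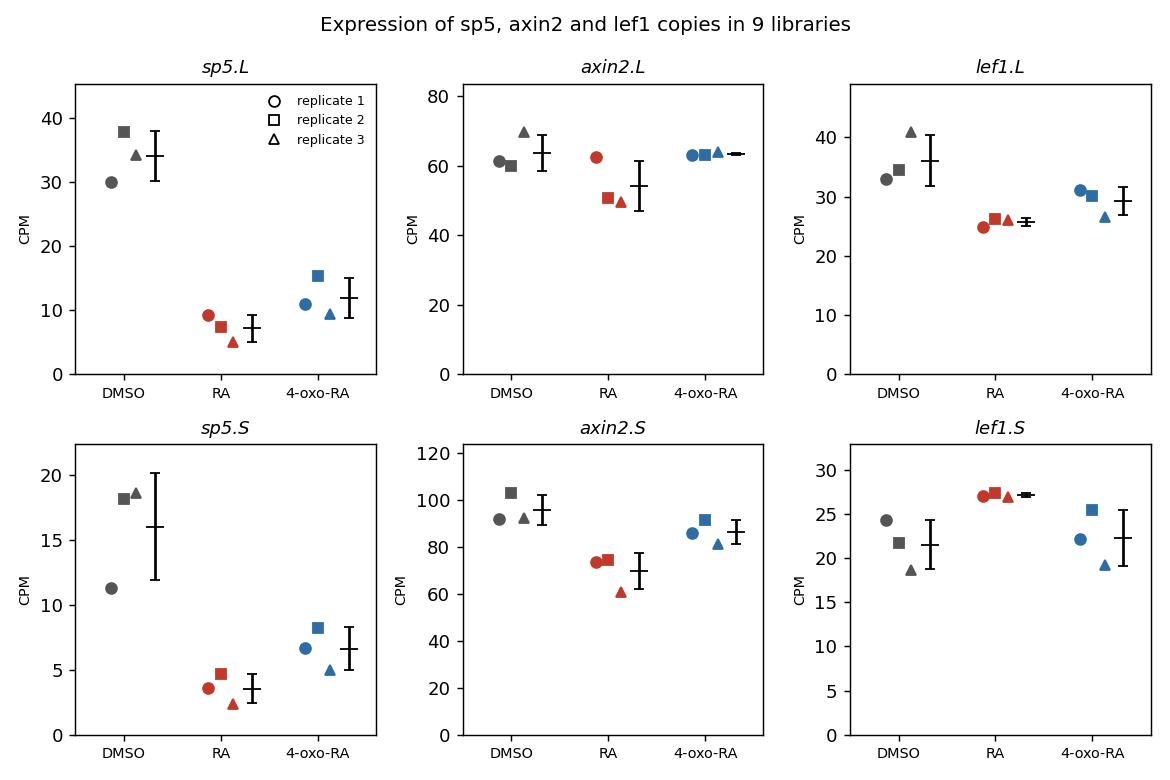
Expression in CPM (vertical axes, starting at 0) of the L and S copies of sp5, axin2 and lef1 in the 9 libraries by treatment. Points are libraries, the shape gives the replicate number, and bars are mean and SD of 3 libraries. The sp5 copies are far lower in both retinoids than in DMSO, while axin2 and lef1 shift less. With RA the means of axin2.S and lef1.L are 72.8% and 71.3% of those in DMSO, and lef1.S is at about 27 CPM in all 3 RA libraries.

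The axin2 copies differed from DMSO far less, and neither was called by edgeR without the block. The DMSO libraries held 61.4, 59.9 and 69.7 CPM of axin2.L, the RA libraries 62.6, 50.7 and 49.5 CPM and the 4-oxo-RA libraries 63.1, 63.1 and 63.8 CPM. RA and DMSO overlapped, since RA replicate 1 lay within the DMSO range. The log2 fold change of axin2.L was −0.23 with RA (95% interval −0.51 to 0.04, edgeR adjusted p = 0.670) and −0.01 with 4-oxo-RA (−0.28 to 0.27, edgeR adjusted p = 1.000).

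For axin2.S the DMSO libraries held 91.6, 102.9 and 92.0 CPM, the RA libraries 73.7, 74.3 and 60.7 CPM and the 4-oxo-RA libraries 85.9, 91.5 and 81.3 CPM. All treated libraries were below the lowest DMSO library, although 4-oxo-RA replicate 2 missed it by only a fraction of a CPM. With RA the mean was 72.8% of that in DMSO, a log2 fold change of −0.46 (95% interval −0.72 to −0.20) that did not pass (edgeR adjusted p = 0.103). With the replicate block it passed, at −0.46 (blocked edgeR adjusted p = 0.00382). With 4-oxo-RA the log2 fold change was −0.15 (−0.41 to 0.11) and did not pass with the block either (blocked edgeR adjusted p = 0.552).

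The log2 fold changes of the lef1 copies had opposite signs with RA, but that of lef1.S passed in neither fit. The change in the L to S ratio of lef1, given below, did not pass either. The counts of lef1.L gave 32.9, 34.4 and 40.9 CPM in DMSO, 24.9, 26.2 and 26.1 CPM in RA and 31.1, 30.0 and 26.6 CPM in 4-oxo-RA. Both retinoids lay below DMSO in every library. The log2 fold change with RA was −0.49 (95% interval −0.78 to −0.19) and did not pass (edgeR adjusted p = 0.141), but passed with the replicate block at −0.49 (blocked edgeR adjusted p = 0.0276). With 4-oxo-RA it was −0.31 (−0.60 to −0.01), past the threshold in neither fit (edgeR adjusted p = 0.760, blocked edgeR adjusted p = 0.293).

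In contrast, lef1.S held 24.3, 21.7 and 18.7 CPM in DMSO and 27.0, 27.4 and 26.9 CPM in RA. The RA libraries were all above the DMSO libraries and nearly equal to each other. The mean in RA was 126% of that in DMSO, a log2 fold change of 0.33 (95% interval −0.00 to 0.67) that did not pass without the block (edgeR adjusted p = 0.540) or with it (blocked edgeR adjusted p = 0.152). With 4-oxo-RA the libraries held 22.2, 25.4 and 19.2 CPM, overlapping DMSO, with a log2 fold change of 0.05 (−0.29 to 0.39). With the 2 copies summed, the log2 fold change of lef1 with RA was −0.13 (edgeR adjusted p = 0.882), so the sign found for lef1.S alone is not that of the sum.

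**Figure D2:**
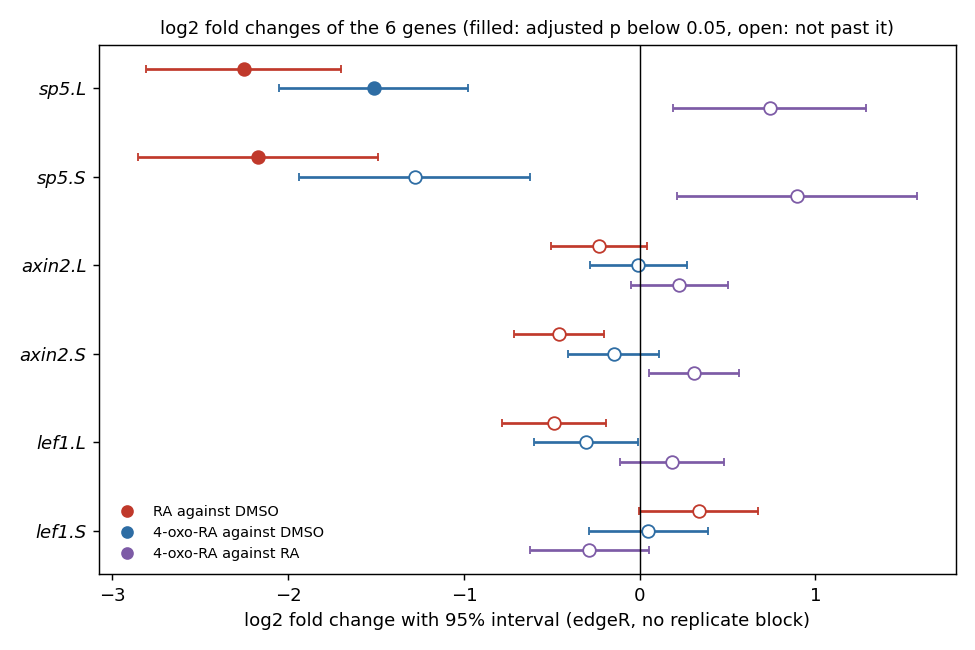
log2 fold changes (horizontal axis) of the 6 genes in 3 comparisons, with 95% intervals from edgeR without the replicate block. Filled points passed an adjusted p of 0.05. The sp5 copies lie at −2.25 and −2.17 with RA and at −1.51 and −1.28 with 4-oxo-RA, and the axin2 and lef1 copies lie between −0.49 and 0.33.

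Counting genes whose treated and DMSO libraries did not overlap, 4 of 6 were lower and 1 higher with RA, and 4 were lower and 0 higher with 4-oxo-RA. Over all genes tested, 6.96% were lower and 7.78% higher in this sense with RA, and 5.28% were lower and 5.9% higher with 4-oxo-RA. The median log2 fold change of the 6 genes was −0.47 with RA and −0.23 with 4-oxo-RA, beside −0.00 and 0.00 over all genes tested.

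Set directly against RA at its lower dose, every 4-oxo-RA library held more of both sp5 copies, a difference that did not pass. The highest RA library of sp5.L stood at 9.16 CPM and the lowest 4-oxo-RA library at 9.38 CPM, and for sp5.S these were 4.64 and 4.95 CPM. The groups therefore did not overlap but came close to touching. The log2 difference of 4-oxo-RA from RA was 0.74 ± 0.25 for sp5.L (95% interval 0.19 to 1.29) and 0.89 ± 0.31 for sp5.S (0.21 to 1.57), and neither passed (edgeR adjusted p = 1.000 for both). With the block the values were 0.74 and 0.90 (blocked edgeR adjusted p = 0.274 and 0.322). In the 3 replicate numbers, 4-oxo-RA was above RA by 0.26, 1.06 and 0.90 for sp5.L on the log2 CPM scale, and by 0.88, 0.81 and 1.00 for sp5.S.

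The direction was the same for axin2.L, axin2.S and lef1.L, at 0.22, 0.31 and 0.18 (95% intervals −0.05 to 0.50, 0.05 to 0.57 and −0.11 to 0.48). For lef1.S it was the opposite, at −0.29 (−0.62 to 0.05). For all 6 genes the 4-oxo-RA and RA libraries did not overlap, 5 being higher and 1 lower in 4-oxo-RA, where 2.88% and 3.6% of all genes tested were so. Between the retinoids edgeR called 0 of all 20811 genes tested without the block, and 532 of the 20811 had an unadjusted p below 0.05. DESeq2 called 13 genes and limma-voom 1, and the blocked fit called 33, or 0.135% lower and 0.024% higher. None of the 6 genes was among the calls of edgeR, DESeq2, limma-voom or the blocked fit.

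The gap between sp5 and the other members was also visible inside each library, where no scaling between libraries enters. Counts of the 2 sp5 copies together, as a percentage of axin2 counts, were 26.9, 34.3 and 32.7 in DMSO, 9.35, 9.57 and 6.68 in RA and 11.9, 15.3 and 9.88 in 4-oxo-RA. These percentages depend on transcript length and are read only between libraries. The 3 treatments did not overlap, with RA lowest. The mean log2 ratio differed from DMSO by −1.89 with RA and by −1.36 with 4-oxo-RA. As a percentage of lef1 counts, sp5 counts were 71.9, 99.6 and 88.7 in DMSO, 24.5, 22.3 and 13.9 in RA and 33.1, 42.6 and 31.3 in 4-oxo-RA, differences of −2.13 and −1.28 from DMSO in the log2 ratio. Of 6 ratio comparisons made, the 2 between the retinoids included, each had p = 0.1 in a two-sided exact permutation test, the smallest that 3 against 3 libraries can give, so none could pass. This ratio was chosen after the values of the genes were seen.

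**Figure D3:**
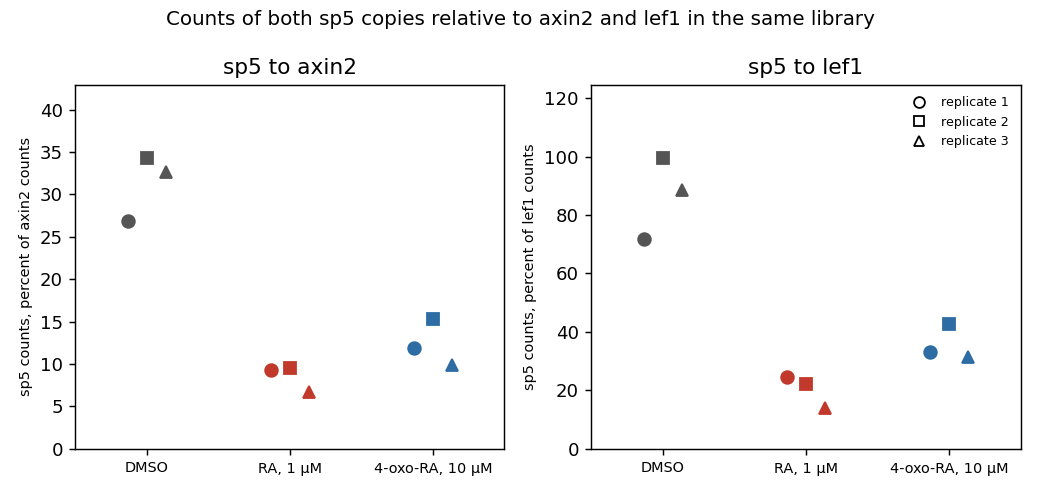
Counts of both sp5 copies as a percentage of axin2 counts (left) and of lef1 counts (right) in the same library, by treatment, with axes starting at 0. Points are libraries and the shape gives the replicate number. All RA and 4-oxo-RA libraries lie below the DMSO libraries, whose lowest values are 26.9% and 71.9%.

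The L copy supplied most sp5 counts and a smaller part of axin2 counts in all treatments. Its share of the L and S counts of sp5 was 68.3% ± 3.99 (SD, n = 3) in DMSO, and it was 66.8% ± 5.39 with RA and 64.2% ± 1.83 with 4-oxo-RA. For axin2 the shares were 40.0% ± 3.15, 43.8% ± 2.88 and 42.4% ± 1.58. Shares of both genes overlapped between treatments. The log2 ratio of L to S changed with RA by −0.10 for sp5 (95% interval −0.74 to 0.53) and by 0.23 for axin2 (−0.15 to 0.60), and limma called neither over 5988 pairs of homeologs (adjusted p = 0.987 and 0.942). The sign for sp5 turned without DMSO replicate 1 or RA replicate 2, at 0.04 and 0.08.

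The share of lef1.L moved the most. It was 57.6%, 61.4% and 68.7% in the DMSO libraries and 48.0%, 48.9% and 49.2% in the RA libraries, and 58.4%, 54.1% and 58.1% in the 4-oxo-RA libraries. With RA all 3 shares lay below all DMSO shares, and their Wilson 95% intervals, which cover counting error only, reached at most 52.9% where those of DMSO began at 53.4%. The log2 ratio of L to S was lower by 0.82 with RA, with a 95% interval of −1.33 to −0.31. This did not pass over all pairs (limma adjusted p = 0.299, and 0.177 with the replicate block), where 0.251% of pairs were called. With 4-oxo-RA the change was −0.35 (−0.85 to 0.16, limma adjusted p = 0.953). The sources used here do not give how reads that match both copies were counted, and the share of a copy carries that uncertainty.

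**Figure D4:**
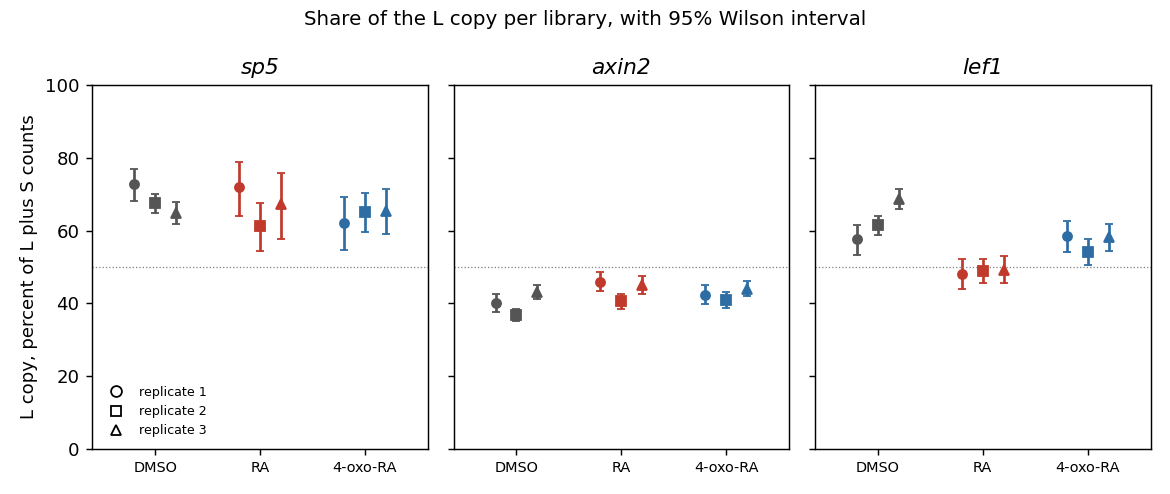
Share of the L copy in the L and S counts (vertical axis, percent) of sp5, axin2 and lef1 per library, with Wilson 95% intervals. The shape gives the replicate number and the dotted line marks equal counts. The lef1.L share is 48.0% to 49.2% in the RA libraries and 57.6% to 68.7% in DMSO.

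Of near relatives, sp5l.S and a provisional axin2 gene, chosen after their values were seen, were lower in RA by less than the sp5 copies. That difference was not tested, and some other Sp genes, given below, were lower by more than sp5l.S. The Sp family gene sp5l.S, named as similar to sp5, went from 71.9 ± 13.2 CPM in DMSO to 52.3 ± 10.4 CPM in RA and 59.8 ± 9.94 CPM in 4-oxo-RA. Its log2 fold change of −0.46 ± 0.19 with RA passed only with the block (edgeR adjusted p = 0.462, blocked edgeR adjusted p = 0.0156). A gene with the provisional symbol axin2 (LOC108701205) went from 33.2 ± 2.84 to 24.2 ± 4.39 CPM with RA. Its log2 fold change was also −0.46 ± 0.19 and also passed only with the block (edgeR adjusted p = 0.466, blocked edgeR adjusted p = 0.0273). With 4-oxo-RA the values were −0.27 and −0.28, and neither passed in either fit.

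The rest of the pathway was followed through 7 lists ordered by role. Their counts are to be read against all genes tested, of which 0.456% were called lower and 1.22% higher with RA. For 4-oxo-RA the shares were 0.111% lower and 0.625% higher. The replicate block raised them to 3.17% lower and 3.5% higher for RA, and to 1.31% lower and 2.05% higher for 4-oxo-RA. Of all 20811 genes tested, 1961 with RA and 1298 with 4-oxo-RA had an unadjusted p below 0.05. DESeq2 called 651 of all genes with RA and 331 with 4-oxo-RA. Among 22 tested genes for Wnt ligands and their secretion, 1 rose and 1 fell with RA and 0 were called with 4-oxo-RA, where 8 had an unadjusted p below 0.05, DESeq2 called 1 and limma-voom 0. On the log2 scale the ligand gene wnt5b.S rose with RA by 1.55 ± 0.28 (edgeR adjusted p = 0.0209), and the ligand gene wnt8b.S fell, at −1.62 ± 0.33 (edgeR adjusted p = 0.0358). The level of wnt5b.S was low, with means of 2.01 CPM in DMSO and 5.88 CPM in RA. With the wnt5b homeologs summed, the log2 fold change was −0.0060 with RA and −0.084 with 4-oxo-RA, so the rise is not that of the sum. Leaving out any DMSO library or RA replicate 2 ended the call of wnt5b.S (edgeR adjusted p from 0.0757 to 0.0941). That of wnt8b.S was lost without 7 of the 9 libraries, the exceptions being RA replicate 1 and 4-oxo-RA replicate 3 (0.0508 to 0.165). The block called 7 ligand genes lower and 2 higher with RA, and 3 lower and 1 higher with 4-oxo-RA. With 4-oxo-RA wnt5b.S was at 1.08 ± 0.29 (edgeR adjusted p = 0.218, blocked edgeR adjusted p = 0.0456). The median log2 fold change of the list was −0.30 with RA and −0.16 with 4-oxo-RA.

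Secreted modulators moved in both directions. With RA sfrp2.S, a gene for a secreted Frizzled-related protein that can bind Wnt ligands, averaged 756 CPM against 203 CPM in DMSO, and so rose by 1.90 ± 0.23 on the log2 scale (edgeR adjusted p = 0.00149). With 4-oxo-RA it rose by 1.51 ± 0.23 (edgeR adjusted p = 0.0112), and both calls held without any single library. The R-spondin gene rspo2.L, whose product strengthens Wnt signals at the receptor, fell with RA, at −1.80 ± 0.35 (edgeR adjusted p = 0.0271). This call ended when DMSO replicate 1, DMSO replicate 3, RA replicate 2 or RA replicate 3 was left out (0.0740 to 0.118). With 4-oxo-RA szl.S and szl.L, copies of the sizzled gene for a secreted Frizzled-related protein of the ventral side, fell, at −1.09 ± 0.20 and −1.26 ± 0.24 (edgeR adjusted p = 0.0332 and 0.0433). Both szl calls were lost without any DMSO library or without 4-oxo-RA replicate 1 or 3, and that of szl.L also without RA replicate 2 (edgeR adjusted p from 0.0624 to 0.201). The szl copies were lower with RA too, though not called. Single libraries left out gave −0.91 to −0.49 for szl.L and −0.42 to −0.16 for szl.S. Of 9 other settings that kept all libraries, szl.L passed with RA in 2 and szl.S in 0. In all 1 of 21 tested modulators rose and 1 fell with RA, and 1 rose and 2 fell with 4-oxo-RA. Over all genes 0.456% were called lower and 1.22% higher with RA, and 0.111% and 0.625% with 4-oxo-RA. Blocked, 7 modulators were lower and 1 higher with RA, and 6 lower and 1 higher with 4-oxo-RA, where 3.17% and 3.5%, and 1.31% and 2.05%, of all genes were called.

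Among receptors and cytoplasmic components 3 genes were called with RA and 1 with 4-oxo-RA without the block. Of 26 tested receptors and their regulators, ror2.L rose, by 0.93 ± 0.13 with RA (edgeR adjusted p = 0.00323) and 0.88 ± 0.13 with 4-oxo-RA (edgeR adjusted p = 0.00760, and 0.0553 without DMSO replicate 2). It encodes a receptor tyrosine kinase that binds Wnt5a. With the block 3 receptor genes were lower and 1 higher with RA (all genes 3.17% and 3.5%), and 2 were lower and 3 higher with 4-oxo-RA (1.31% and 2.05%). Of 25 tested genes of the destruction complex and Dishevelled, dact1.L and dact1.S, copies of a gene for a Dishevelled-binding protein, rose with RA by 1.06 ± 0.19 and 0.94 ± 0.18 (edgeR adjusted p = 0.0173 and 0.0285). Calls of dact1.L were lost without any DMSO library or RA replicate 3 and those of dact1.S without DMSO replicate 2, DMSO replicate 3, RA replicate 1 or RA replicate 3 (range of edgeR adjusted p 0.0550 to 0.116). With 4-oxo-RA dact1.L was at 0.90 ± 0.19 and did not pass (edgeR adjusted p = 0.0692), but passed with the block (blocked edgeR adjusted p = 1.64e-05). That list had 0 calls with 4-oxo-RA in edgeR, and 3 of its genes had an unadjusted p below 0.05, as did 1298 of all 20811 genes tested. Of the list DESeq2 called 2 and limma-voom 0, and the block called 2 higher and 0 lower with either retinoid. With RA the median log2 fold change was −0.11 for receptors and −0.03 for the destruction complex, and with 4-oxo-RA it was −0.04 and −0.03.

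Among 24 tested TCF/LEF partners and nuclear cofactors, ctnnbip1.S, whose product blocks the binding of beta-catenin to TCF proteins, rose with RA by 0.77 ± 0.17 (edgeR adjusted p = 0.0492). Its call was lost without 7 of the 9 libraries, all except 4-oxo-RA replicates 2 and 3 (edgeR adjusted p from 0.0612 to 0.232). The other copy, ctnnbip1.L, was at 0.02 ± 0.14 with RA and did not pass in either fit (edgeR adjusted p = 0.996, blocked edgeR adjusted p = 0.976). The beta-catenin genes ctnnb1.L and ctnnb1.S, chosen after their values were seen, were at −0.24 and 0.11 with RA (edgeR adjusted p = 0.701 and 0.919). With the block ctnnb1.L passed, at −0.24 (blocked edgeR adjusted p = 0.0318), and ctnnb1.S did not (0.451). With 4-oxo-RA the list had 0 calls in edgeR, with 3 genes at an unadjusted p below 0.05 (1298 of all 20811 genes tested). Of the list DESeq2 called 2 and limma-voom 0. The block called 4 of the list lower and 2 higher with RA, and 2 lower and 1 higher with 4-oxo-RA, against 3.17%, 3.5%, 1.31% and 2.05% of all genes. Among 11 tested Sp genes other than sp5, sp7.S, a zinc-finger gene known in mouse for its part in bone formation, fell with RA, at −0.73 ± 0.16 (edgeR adjusted p = 0.0437). That call was lost without 7 of the 9 libraries, the exceptions being 4-oxo-RA replicate 1 and RA replicate 1 (range of edgeR adjusted p 0.0547 to 0.141). With 4-oxo-RA edgeR called 0 Sp genes, with 2 at an unadjusted p below 0.05 (1298 of all 20811 genes tested). DESeq2 and limma-voom called 0 Sp genes. With the block 5 of the 11 Sp genes were lower with RA and 2 with 4-oxo-RA, where 3.17% and 1.31% of all genes were, and 0 were higher. Among the 5 were sp9.S at −1.78 ± 0.77, sp8.L at −1.02 ± 0.27 and sp8.S at −0.82 ± 0.20 with RA. These did not pass without the block (edgeR adjusted p = 0.493, 0.117 and 0.0936) but did with it (blocked edgeR adjusted p = 0.0185, 0.00130 and 0.00131). The level of sp9.S was low, 3.04 CPM in DMSO and 0.90 CPM in RA. The values of ctnnbip1.S and sp7.S with 4-oxo-RA were 0.64 ± 0.17 and −0.41 ± 0.15 (edgeR adjusted p = 0.216 and 0.592, blocked edgeR adjusted p = 0.0149 and 0.04996). The median of the Sp list was −0.40 with RA and −0.22 with 4-oxo-RA.

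Other genes reported as Wnt/beta-catenin targets moved both ways. Of 40 tested, 6 fell and 2 rose with RA and 32 did not pass, and with 4-oxo-RA 2 fell and 2 rose. Over all genes tested 0.456% were called lower and 1.22% higher with RA, and 0.111% and 0.625% with 4-oxo-RA. Those that rose in both were meis3.L and meis3.S, copies of a Hox cofactor gene of the hindbrain, by 1.99 ± 0.14 and 1.40 ± 0.14 with RA and by 1.77 ± 0.14 and 1.24 ± 0.14 with 4-oxo-RA (edgeR adjusted p from 3.97e-05 to 0.00150). The neural crest gene snai2.S fell, at −2.53 ± 0.35 with RA and −1.75 ± 0.33 with 4-oxo-RA (edgeR adjusted p = 0.00341 and 0.0418). The 4-oxo-RA call of snai2.S was lost without any 4-oxo-RA or DMSO library or RA replicate 3 (edgeR adjusted p from 0.0645 to 0.209). Also called lower with RA were snai2.L at −2.19 ± 0.43 (edgeR adjusted p = 0.0284, lost without any DMSO library or RA replicate 2 or 3), twist1.S at −1.63 ± 0.32 (edgeR adjusted p = 0.0294) and wnt8b.S. The lists overlap, and wnt8b.S is counted among the ligand genes too.

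The number of these targets called lower with RA depended on single libraries. It was 3, 2 and 2 without DMSO replicates 1, 2 and 3, and 11, 3 and 2 without RA replicates 1, 2 and 3. With 4-oxo-RA it was 1 without any DMSO library, 4-oxo-RA replicate 1 or 3, or RA replicate 3, and 4 without RA replicate 1. With the replicate block 17 fell and 4 rose with RA, and 10 fell and 4 rose with 4-oxo-RA, against 3.17% and 3.5%, and 1.31% and 2.05%, of all genes tested. The list median was −0.52 with RA and −0.42 with 4-oxo-RA, beside −0.00 and 0.00 over all genes tested.

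**Figure D5:**
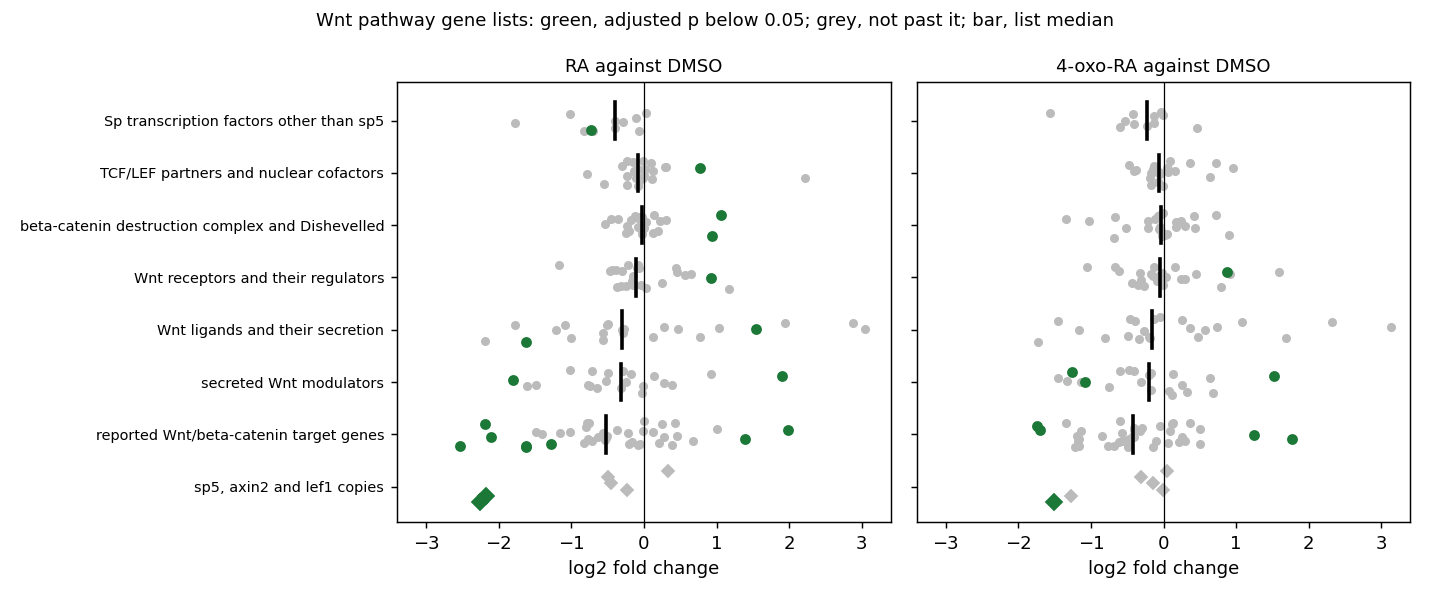
log2 fold changes (horizontal axes) of tested genes in 7 Wnt pathway lists and of the 6 sp5, axin2 and lef1 copies (diamonds), with RA (left) and 4-oxo-RA (right) against DMSO. Green points passed an adjusted p of 0.05 in edgeR, grey points did not, and black bars are list medians. With RA the list medians lie between −0.52 (targets) and −0.03 (destruction complex and Dishevelled), and the target list has 6 lower and 2 higher calls.

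Genes with a pattern most like that of sp5 were ranked among 13039 named genes whose mean reached 1 CPM. The measure was the root mean square difference, over the 9 libraries, between a gene's centred log2 CPM and the mean of the 2 sp5 copies, and a smaller value means a closer pattern. Among the 5 closest were otx2.L, a homeobox gene of the head (0.219), dmrta1.S, a DM-domain transcription factor gene (0.229), gsc.S, the homeobox gene goosecoid of the organizer and prechordal plate (0.242), and uts2r.L, a G-protein-coupled receptor gene (0.324). On the same measure sp5.L, itself part of the mean used, lay at 0.120. The root mean square difference of the 2 sp5 copies from each other, not from their mean, was 0.240. By contrast, axin2.S and lef1.L ranked 489 and 486, axin2.L 1702 and lef1.S 10303. With RA otx2.L went from 218 ± 25.04 to 61.95 ± 19.99 CPM, and with 4-oxo-RA to 83.5 ± 20.5 CPM. When single libraries were left out, otx2.L ranked between 1 and 3 and uts2r.L between 4 and 16.

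Markers of several regions were lower in the same libraries as sp5. Summed over 12 neural crest genes, DMSO libraries ranged from 414 to 478 CPM, RA libraries from 169 to 349 CPM and 4-oxo-RA libraries from 269 to 297 CPM, with 0 genes at a count of 0. With RA 4 of the 12 crest genes fell, and with 4-oxo-RA 1 did, where 0.456% and 0.111% of all genes were called lower. Crest genes snai2.S, snai2.L and twist1.S are also in the list of Wnt/beta-catenin targets, so the lists are not separate. The RA count was 2, 2 and 1 without DMSO replicates 1, 2 and 3, and 8, 1 and 1 without RA replicates 1, 2 and 3. The 4-oxo-RA count was 0 without any DMSO or 4-oxo-RA library or RA replicate 3, and 3 without RA replicate 1. Over all genes, leaving out single libraries gave 31 to 138 lower calls with RA and 5 to 33 with 4-oxo-RA. Blocked, 9 crest genes were lower and 1 higher with RA, and 4 lower and 1 higher with 4-oxo-RA, against 3.17%, 3.5%, 1.31% and 2.05% of all genes. The anterior neural plate and eye field list summed to between 438 and 608 CPM with RA and between 521 and 662 CPM with 4-oxo-RA, and 7 of 9 tested genes fell with RA and 2 with 4-oxo-RA. With the block 7 were lower with either retinoid. Without the block the RA count was 3 when DMSO replicate 1, DMSO replicate 3, RA replicate 2 or RA replicate 3 was left out, and the 4-oxo-RA count was 0 without any DMSO or 4-oxo-RA library. These counts too are to be read beside the ranges over all genes given for the crest. The part that such regions play in the sp5 result was not tested.

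The sums of the remaining region lists differed less in relative terms. Midbrain-hindbrain boundary genes summed to between 100.03 and 139 CPM in DMSO, 120 and 161 CPM in RA and 144 and 161 CPM in 4-oxo-RA, with fgf8.L and fgf8.S, which encode a secreted growth factor, higher in both retinoids. The 4-oxo-RA libraries lay above the DMSO libraries, and RA overlapped them. With the block 5 of 8 tested boundary genes were lower and 2 higher with RA, and 3 were lower and 2 higher with 4-oxo-RA. Over all genes tested these shares were 3.17%, 3.5%, 1.31% and 2.05%. The median log2 fold change of the boundary list was −0.68 with RA and −0.50 with 4-oxo-RA, so the sum does not speak for each gene. Cement gland and hatching gland genes, of which pitx1.L fell with RA, summed to between 2641 and 3615 CPM in DMSO and between 2393 and 2434 CPM in RA. In 4-oxo-RA they summed to between 2327 and 2672 CPM, overlapping DMSO, which RA did not. Of 5 tested gland genes 1 was called lower with RA and 0 with 4-oxo-RA, against 0.456% and 0.111% of all genes. With the block 3 and 2 were called lower, against 3.17% and 1.31%. With 4-oxo-RA pitx1.L was at −0.51 ± 0.14 and passed only with the block (edgeR adjusted p = 0.226, blocked edgeR adjusted p = 0.0118). Posterior growth zone and tailbud genes summed to between 37.5 and 62.8 CPM in RA and between 35.7 and 50.4 CPM in 4-oxo-RA, both within the DMSO range. Of 8 tested posterior genes edgeR called 0 in either comparison, with 2 and 1 at an unadjusted p below 0.05. Over all 20811 genes tested, 1961 with RA and 1298 with 4-oxo-RA had such a p. DESeq2 and limma-voom also called 0 posterior genes with either retinoid, while the block called 1 lower with RA, tbxt.S. The notochord and tailbud gene tbxt.S was at −0.79 ± 0.23 with RA and −0.62 ± 0.23 with 4-oxo-RA (edgeR adjusted p = 0.162 and 0.538, blocked edgeR adjusted p = 0.0173 and 0.101).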

How the data were processed

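Stranded messenger RNA libraries were sequenced, per the labels, and the authors deposited raw counts per gene, used here as the table of all 9 libraries. The tables of single samples hold the same values. STAR 2.7.3 is named in the submitters' processing notes, while the counting tool, genome build, annotation and treatment of reads shared by homeologs are not given in the sources used here. All 6 genes matched RefSeq symbols, and no coordinates or sequences were used.

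Counts were tested with edgeR 4.0.16 in R 4.3.3 (filterByExpr, TMM, quasi-likelihood test, all 9 libraries in 1 fit, Benjamini-Hochberg over 20811 genes). L to S ratios (offset 0.5, at least 10 counts of both copies together in every library) were tested with limma 3.58.1. DESeq2 1.42.0, limma-voom, other scaling and filters, summed homeologs, single libraries left out and the replicate number as a block were alternatives. The procedures were tested on simulated data in which all genes had the same spread and libraries were not paired. There edgeR recovered 27% of 2-fold changes for RA and 33% for 4-oxo-RA, and 99% and 96% of 4-fold changes. The test of L to S ratios, with the copies of a pair drawn independently, recovered 29% of 4-fold changes. These shares hold for the simulated spread, and the precision for a single gene here is given by its own interval. A change that did not pass is not shown to be absent.

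The labels do not say what a replicate number means. Deviations from group means correlated between same-numbered libraries (r from 0.43 to 0.54, 9 pairs). Other pairs had negative values (−0.33 to −0.13, 18 pairs). These are no separate observation, because deviations from a group mean cancel within the group. The numbers thus appeared to pair the samples, but the main calls come from the fit without the block and ignore this pairing. The biological coefficient of variation, a measure of spread between libraries, was 0.272 without the block and 0.138 with it. A gene that did not pass without the block may therefore pass with it. The genes and lists were chosen with earlier results of these data known. Named genes were all copies of sp5, axin2 and lef1, up to 3 called genes per list and direction by smallest adjusted p, the gene with the smallest p in a list with no call, and the 5 genes most like sp5. Where other genes are named, they were chosen after their values were seen. Results of some genes that these rules name are not reported here.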

Additional observations from a re-analysis of the deposited data

How the results depend on the processing

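The fall of both sp5 copies with RA held under every alternative run. Against 349 genes called with RA, DESeq2 called 651, no filter on low counts 831, the replicate block 1389, an adjusted p below 0.01 left 161, and leaving out single libraries gave 194 to 366. Against 153 with 4-oxo-RA the counts were 331, 453, 700, 78 and 75 to 150. Between the retinoids, where 0 were called, DESeq2 called 13, limma-voom 1, no filter 46, the replicate block 33 and single libraries left out 0 to 1. With RA, axin2.S passed in DESeq2 (−0.46, adjusted p = 0.0137) and with the replicate block (−0.46, 0.00382), and lef1.L likewise (−0.49, 0.0361, and −0.49, 0.0276). With 4-oxo-RA, sp5.S passed in DESeq2 (−1.28, 0.00500), without a filter (−1.29, 0.00144), with the replicate block (−1.30, 0.00347) and with homeologs summed (−1.43, 0.0217). For sp5.L with 4-oxo-RA, −1.51 (0.0148) missed a threshold of 0.01, and single libraries left out gave −1.74 to −1.36. With homeologs summed the sign turned for lef1.S with RA (−0.13) and 4-oxo-RA (−0.16), for lef1.L between the retinoids (−0.036), and for wnt5b.S with RA (−0.0060) and 4-oxo-RA (−0.084), where the summed value includes the other copy. Leaving out single libraries turned the sign of axin2.L (−0.051 to 0.064) and lef1.S (−0.058 to 0.15) with 4-oxo-RA and of the sp5 L to S ratio with RA (−0.27 to 0.076); the cause was not tested. Counts of sp5 in RA, 98 to 201 per library over both copies, limit the precision of its L to S ratio.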
